A study of Mus musculus with 16 samples.

Results

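The loss of Brg1 was examined in the subependymal zone (SEZ), a thin layer under the wall of the lateral ventricle in which new neurons are made throughout life. The comparison set 3 arrays of conditional knockout (cKO) tissue against 5 arrays of control tissue, 8 of the 16 arrays in the study, the other 8 being from the olfactory bulb (OB). Arrays were taken by the tissue and genotype in their titles, and the comparison covered the 19938 genes that had a probe set with exactly 1 symbol. The cKO mice were GlastCreERT2/Brg1fl/fl. The control mice were GlastCreERT2/Brg1fl/+, apart from SEZ control replicate 5, whose genotype was given as GlastCreERT2/Brg1+/+. All mice therefore carried the GlastCreERT2 allele, a tamoxifen-dependent Cre placed in the Slc1a3 (Glast) locus, which is active in astrocytes and in the astrocyte-like stem cells of the SEZ. Neurons that were in place before induction, microglia and vessels are not targets of this Cre, and they were part of the dissected tissue. The mice were 2.5 months old on a mixed C57BL/6, CD1 background. No treatment was listed, and the labels leave the gender undetermined and do not state when tamoxifen was given. The replicates were labelled biological.

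Brg1, encoded by Smarca4, is an ATPase that drives SWI/SNF chromatin remodelling complexes, which slide and evict nucleosomes at promoters and enhancers. In the SEZ, astrocyte-like stem cells give rise to fast-dividing progenitors, which in turn give rise to neuroblasts that migrate to the olfactory bulb and become interneurons. Dividing cells of the layer switch on the genes of DNA replication and then those of mitosis, and their neuronal daughters switch on Dlx transcription factors and the microtubule protein doublecortin. Ependymal cells with motile cilia separate the layer from the ventricle, the striatum lies under it and the cortex above it.

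Expression is given as log2 values, on which a difference of 1 is a 2-fold difference. No gene passed an adjusted p under 0.05 between SEZ cKO and control tissue in the limma fit (Benjamini-Hochberg over 19938 genes, 0 called, 0%), and the lowest adjusted p was 0.268. At an unadjusted p under 0.05 there were 492 genes (2.47%), 201 of them lower in cKO (1.01%) and 291 higher (1.46%). In 210 genes (1.05%) all 3 cKO arrays lay below all 5 controls, and in 188 (0.943%) all lay above. The genes of mitosis stood at the low end of this range. Of 64 measured G2 and mitosis genes 58 had an estimate below 0, against 48% of all genes, and in 17 (26.6%) the groups did not overlap, each time with cKO lower. Cyclin A2 (Ccna2), which drives S phase and entry into mitosis, was at -0.59 and had the smallest p of all genes. No gene of this list passed the adjusted threshold, so none is called changed.

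The tissue on the arrays held markers of the SEZ and of its neighbours. Dcx, the doublecortin gene of neuroblasts, lay between 9.45 and 10.12 over the 8 arrays. Foxj1, the master regulator of motile cilia in ependymal cells, lay between 8.10 and 8.50. Drd1, a dopamine receptor of striatal projection neurons, lay between 12.37 and 12.71, and Ppp1r1b, the striatal phosphatase inhibitor DARPP-32, between 12.19 and 12.64. Striatal tissue was thus present on every array, and its list of 28 genes had array means of 11.69 to 11.83 in cKO and 11.60 to 11.83 in controls, with overlap. Levels of different genes are not compared, since probes differ in brightness.

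Cortical tissue was uneven. Slc17a7, the vesicular glutamate transporter of cortical excitatory neurons, was at 8.04, 8.68 and 7.84 in cKO replicates 1 to 3 and at 8.74, 10.58, 8.44, 11.06 and 8.98 in control replicates 1 to 5. Controls 2 and 4 stood far above the other 6 arrays. Tbr1, a transcription factor of deep cortical layers, was at 8.17 and 8.63 in these same 2 controls and between 6.47 and 6.91 in the other 6 arrays. The 22 measured genes of the cortical list had array means of 8.67, 8.74 and 8.64 in cKO and 8.81, 8.99, 8.70, 9.30 and 8.75 in controls. The estimate for Slc17a7 was -1.37 (SE 0.45, adjusted p = 1.00), for Fezf2, a specifier of corticofugal neurons, -0.32 (SE 0.11), and for Neurod6 -0.54 (SE 0.24). In the fit without controls 2 and 4, Tbr1 went from -0.65 to 0.04. Slc17a7 stayed at -0.535 (SE 0.18) and Fezf2 at -0.17 (SE 0.09) in that fit. The cortical list median was -0.07 there, with 16 of 22 genes below 0, so part of the cortical difference remained. Because of this unevenness, results below were also computed without controls 2 and 4 and with the cortical and striatal list means as covariates.

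The arrays also differed within groups. The strongest component of the SEZ arrays after the group means were removed, which therefore cannot follow the genotype, held 52.2% of the variance within groups. It set controls 1 and 3 and cKO 3 (scores -0.54, -0.46 and -0.30) apart from controls 2, 4 and 5 and cKO 1 (0.33, 0.38, 0.29 and 0.26), with cKO 2 at 0.04. The mean of 51 small nucleolar RNA genes ran from 7.69 to 7.98 in cKO and from 7.51 to 7.95 in controls. Y-linked genes were high (means of 8.76 to 8.97) in cKO 3 and controls 2, 3 and 5 and low (5.24 to 5.48) in the other 4 arrays. Xist, which is expressed in females, was the reverse, at 5.82 to 6.80 in the former and at 11.82 to 12.40 in the latter. By these genes cKO 3 and controls 2, 3 and 5 were male and the other 4 arrays female, so sex was not balanced between the groups. The choroid plexus transcript Ttr ranged from 7.46 to 10.83, with high values in both groups. The component, the small nucleolar RNA mean and the Y-linked mean were each tried as a covariate, and the part of Ttr-expressing tissue was not tested.

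Slc1a3, whose locus carries the Cre, was at 11.32, 11.16 and 8.16 in cKO replicates 1 to 3 and at 11.51, 11.79, 11.37, 11.18 and 11.27 in control replicates 1 to 5. Only cKO 3 was low among the 8 SEZ arrays, and OB cKO replicate 3 was low too, at 8.85 against 11.64 to 12.27 in the other OB arrays. The estimate for the group, -1.21 (SE 0.64), rests on that array, and it was -0.18 without it. The cause was not tested.

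Smarca4 itself was at 10.73, 10.62 and 10.77 in the cKO arrays and at 10.71, 10.67, 10.78, 10.72 and 10.70 in controls. The groups overlapped, with a difference of -0.01 (95% interval -0.14 to 0.12). Which part of the gene was removed is not stated in the labels and only part of the cells could recombine, so this level does not check the genotype. In such bulk tissue, fewer cells of a type and less RNA per cell cannot be told apart.

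None of the 29 measured SWI/SNF genes passed, and the median of the list was -0.01, against 0.004 for all genes. Smarca2, which encodes Brm, the other ATPase of the complex, lay between 11.38 and 11.58 in cKO and between 11.15 and 11.56 in controls, with overlap. Smarcb1, a core subunit, was at 0.06 (SE 0.06) and Pbrm1, a bromodomain subunit of the polybromo form, at -0.16 (SE 0.16). Dpf1, a subunit of the neuronal form, was at 0.10 (SE 0.08). In Bcl11b, both a subunit and a striatal neuron factor, the groups did not overlap, with 11.47, 11.63 and 11.51 in cKO against 11.33 to 11.44 in controls. It was the 1 such member (3.45%, against 0.943% of all genes with all cKO arrays higher).

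Ccna2 was at 7.90, 8.08 and 8.18 in the cKO arrays and at 8.62, 8.58, 8.87, 8.50 and 8.63 in the controls. Every cKO array was below every control, with a gap of 0.32 between the highest cKO and the lowest control. The difference was -0.59 (SE 0.10, 95% interval -0.79 to -0.38, limma adjusted p = 0.268), or 66.6% of the control level. It was -0.65 (SE 0.11) without controls 2 and 4 and -0.68 (SE 0.11, adjusted p = 0.157) with both tissue covariates. Its lowest and highest estimates over 19 fits in which an estimate can move were -0.69 and -0.51.

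Mki67, the chromosome surfactant used as a marker of cycling cells, was at 7.59, 7.58 and 7.22 in cKO and at 7.81, 7.96, 7.90, 8.05 and 8.05 in controls. The cKO arrays were again all lower (-0.49, SE 0.10, adjusted p = 0.758). Sgo2a, which guards cohesin at centromeres, was at 6.88, 6.91 and 6.54 in cKO against 7.12, 7.37, 7.24, 7.42 and 7.20 in controls (-0.49, SE 0.09, adjusted p = 0.395). Kif11, the kinesin that pushes spindle poles apart, was at 7.71, 7.57 and 7.42 against 7.80, 8.18, 8.10, 8.19 and 8.13 (-0.51, SE 0.11, adjusted p = 0.758). In Kif11 the nearest control was replicate 1, which stood apart from the other 4. Over the same 19 fits Mki67 lay between -0.55 and -0.37, Sgo2a between -0.56 and -0.37 and Kif11 between -0.59 and -0.44.

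Top2a, the topoisomerase that untangles replicated chromosomes, was at 7.02, 7.40 and 7.23 in cKO and at 7.79, 7.67, 7.72, 7.55 and 7.85 in controls. This gave a difference of -0.50 (SE 0.10, adjusted p = 0.758) with no overlap. The gene has another, dim probe set, with means of 4.16 in cKO and 3.93 in controls, on which the difference was 0.23. With both probe sets averaged the estimate was -0.13. Nusap1, a spindle microtubule protein, was at 6.22, 6.35 and 6.31 against 6.92, 6.84, 6.89, 6.58 and 6.53 (-0.46, SE 0.10, adjusted p = 1.00). Smc4, a condensin subunit, and Kif23, a kinesin of cytokinesis, had no overlap either, at -0.37 (SE 0.09) and -0.32 (SE 0.08).

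The other 9 of the 17 genes without overlap were Foxm1, the transcription factor of the mitotic programme, Cdk1, the kinase of mitotic entry, Aspm, Tpx2, Prc1, Kif20a, Cenpe, Cenpf and Ncapg2. Most of them are named here because of their values and not by the rule for named genes. Their differences ran from -0.40 (SE 0.11) for Prc1, which bundles the central spindle, to -0.17 (SE 0.09) for Cenpe, a kinetochore motor, and Foxm1 was at -0.29 (SE 0.07). The gaps between the groups were small in several of them, 0.02 in Cdk1 and 0.01 in Cenpe, against 0.22 in Mki67.

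**Figure D1:**
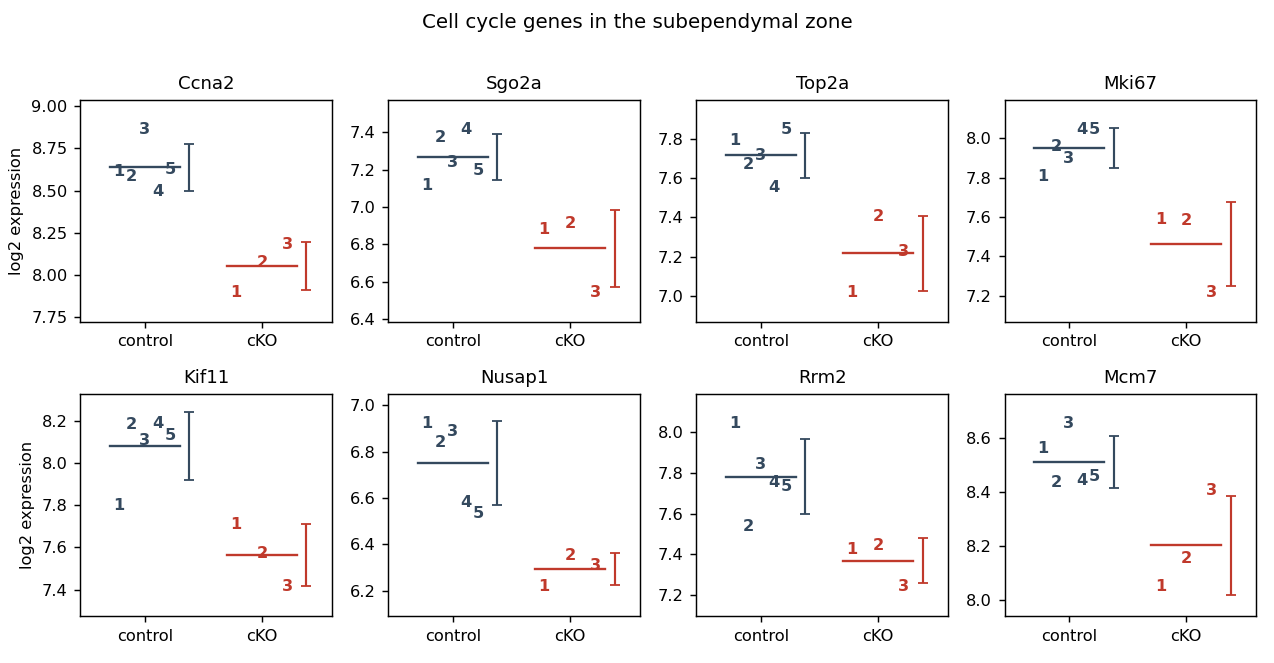
Log2 expression of 8 cell cycle genes in the 5 control and 3 cKO arrays of the SEZ; each digit is the replicate number of an array, horizontal lines are group means and bars to the right are the SD, and the axes do not start at 0. In each of the 8 genes all cKO arrays lie below all controls, by the widest margin in Ccna2 (0.32).

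Over the whole G2 and mitosis list the median difference was -0.17, against 0.004 for all genes, and members ran from -0.59 to 0.07. At an unadjusted p under 0.05 there were 27 of 64 members lower and 0 higher, against 1.01% of all genes lower and 1.46% higher. The list mean was 6.75, 6.83 and 6.74 in the cKO arrays and 6.99, 6.95, 7.03, 6.90 and 6.93 in the controls. All 3 cKO arrays were thus lower than all 5 controls. Of the 2 controls rich in cortex, control 4 was the lowest of the controls and control 2 the middle one. The median was -0.20 without those 2 arrays, with 60 of 64 genes below 0, and -0.21 with both tissue covariates, with 61 below 0. In the OB, where other arrays were compared, the median of the same list was -0.02 and 37 of 64 genes were below 0. These genes were dim on the arrays. Of the 64, 27 had a mean level at or below the lower quartile of all genes (6.53), with a median difference of -0.15, while the 37 brighter members had a median of -0.22. In the fit limited to genes above the median level over all 16 arrays only 3 members were left, with a median of -0.01.

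Mitotic genes are classically controlled through a cell cycle genes homology region (CHR), to which DREAM and MuvB complexes bind, and through CCAAT boxes, which bind the factor NF-Y. The promoters of the 4 members with the smallest p among those listed in the promoter table are shown, since the groups did not overlap in any of them, each as the 250 bases before the transcription start, 5′ to 3′ on the strand of the gene, from RefSeq (GRCm38.p6). Capitals mark CCAAT boxes (CCAAT, or ATTGG on the other strand) and CHR letters (TTTGAA, or TTCAAA on the other strand). Top2a lies on the minus strand at chr11:99024190-99024439, Mki67 on the minus strand at chr7:135716380-135716629, Kif11 on the plus strand at chr19:37376132-37376381 and Sgo2a, for 1 of its 2 listed starts, on the plus strand at chr1:57985090-57985339.
Top2a: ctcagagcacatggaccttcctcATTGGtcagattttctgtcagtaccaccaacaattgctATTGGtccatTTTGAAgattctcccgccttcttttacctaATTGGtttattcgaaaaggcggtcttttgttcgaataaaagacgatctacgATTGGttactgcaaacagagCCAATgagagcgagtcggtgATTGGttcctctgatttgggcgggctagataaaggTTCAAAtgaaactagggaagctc
Mki67: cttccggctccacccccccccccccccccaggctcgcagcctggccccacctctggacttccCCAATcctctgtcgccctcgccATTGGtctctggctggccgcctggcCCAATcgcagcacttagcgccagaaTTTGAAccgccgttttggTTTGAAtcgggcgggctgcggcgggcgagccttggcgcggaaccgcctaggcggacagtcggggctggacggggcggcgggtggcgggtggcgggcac
Kif11: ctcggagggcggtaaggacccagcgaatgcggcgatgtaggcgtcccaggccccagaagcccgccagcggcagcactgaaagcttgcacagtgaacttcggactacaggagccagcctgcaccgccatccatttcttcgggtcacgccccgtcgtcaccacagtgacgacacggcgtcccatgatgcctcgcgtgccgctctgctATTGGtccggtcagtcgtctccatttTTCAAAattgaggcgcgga
Sgo2a: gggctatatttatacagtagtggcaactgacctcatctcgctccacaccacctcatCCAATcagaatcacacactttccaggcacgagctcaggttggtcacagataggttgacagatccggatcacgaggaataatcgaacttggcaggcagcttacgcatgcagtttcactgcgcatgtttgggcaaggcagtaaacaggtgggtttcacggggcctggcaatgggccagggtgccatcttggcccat
Top2a held 6 CCAAT boxes and 2 CHR matches in this window, Mki67 3 and 2, and Kif11 1 and 1. Sgo2a held 1 CCAAT box and no CHR match. Ccna2 had no entry in the promoter table.

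The search was extended to the whole 300 bases of each entry (250 before and 50 after the start, both strands). Of the 64 genes 52 had entries, 56 promoters in all, and 76.8% of these held TTTGAA or its reverse, against 17.9% of all 32851 promoters. A CCAAT box was found in 69.6%, against 37.4% of all promoters, and both elements in 60.7%, against 6.95%. In the 250 bases before the start alone the CHR share was 39.3%, against 16% of all promoters. Among the 14 promoters of members whose groups did not overlap, 64.3% held both elements, a share near the 60.7% of the list. In the 38 promoters of S phase genes the CHR share was 15.8%, while the E2F letters TTTGGCGC were in 15.8%, against 0.514% of all promoters. These matches are letters and not measured binding.

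Genes of DNA replication and S phase leaned the same way by less. Of 38 measured members 34 had an estimate below 0, with a median of -0.08. At an unadjusted p under 0.05, 6 were lower, against 1.01% of all genes. In 5 of the 38 (13.2%, against 1.05% of all genes) all cKO arrays were lower. The list mean was 7.66, 7.69 and 7.67 in cKO and lay between 7.77 and 7.80 in the 5 controls. The cKO arrays were lower by more than the spread within either group, whose SDs were 0.01. Rrm2, the ribonucleotide reductase subunit made in S phase, was at 7.42, 7.44 and 7.24 in cKO and at 8.04, 7.54, 7.84, 7.75 and 7.73 in controls (-0.41, SE 0.10, adjusted p = 1.00). The replicative helicase genes Mcm7 (-0.31, SE 0.09), Mcm6 (-0.33, SE 0.11) and Mcm5 (-0.25, SE 0.07) and the chromatin assembly gene Chaf1b (-0.31, SE 0.11) made up the rest of the 5. The groups overlapped in Pcna, the sliding clamp (-0.17, SE 0.12), Mcm2 (-0.11, SE 0.08) and Dtl (-0.25, SE 0.10). Without controls 2 and 4 the median was -0.10 and 30 members were below 0. In the OB the median of these genes was -0.09, with 28 of 38 below 0.

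**Figure D2:**
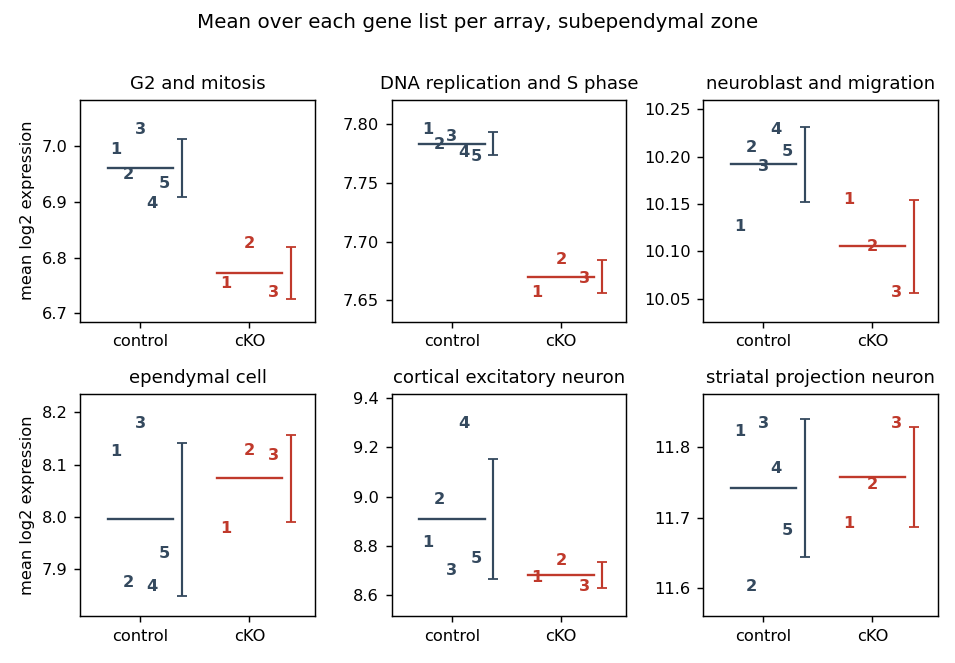
Mean log2 expression over 6 gene lists in each SEZ array; digits are replicate numbers, lines are group means and bars are the SD over arrays, and the axes do not start at 0. The cKO arrays lie below every control for G2 and mitosis and for S phase genes, while the cortical list separates controls 2 and 4 from the rest and the striatal list shows no separation of the groups.

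Further cell cycle genes outside these lists were among those with the smallest p. Pclaf, a PCNA-binding protein, was at 8.06, 8.08 and 7.98 in cKO against 8.45, 8.56, 8.67, 8.33 and 8.33 in controls (-0.43, SE 0.10), and its other probe set gave -0.53. Knl1, a kinetochore scaffold, was at -0.38 (SE 0.09), and the histone gene H2ac15 at -0.35 (SE 0.08, adjusted p = 0.758). H2ac15 belongs to a family of near-identical copies, so its signal may include others of them. All 3 had no overlap between groups.

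The cyclins, kinases and inhibitors of G1 had a median of -0.09 over 18 genes, 14 of them below 0. In either direction 0 members had an unadjusted p under 0.05, against 2.47% of all genes. The median was nearer 0 without cKO 3 (-0.04, 12 below 0) and with the cortical covariate (-0.04, 13 below 0). Ccnd2, the D cyclin of neural progenitors, was at 10.33, 10.24 and 10.12 in cKO and at 10.58, 10.09, 10.89, 10.45 and 10.33 in controls, with overlap (-0.24, SE 0.13). Cdk4 was at -0.11 (SE 0.06) without overlap and Cdk6 at -0.18 (SE 0.10) with it. Genes induced by p53 did not lean either way, with a median of -0.002 over 13 genes. Of these Phlda3 was at -0.13 (SE 0.11) and Mdm2, the ligase that degrades p53, at -0.09 (SE 0.09).

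Neurogenic transcription factors were next. Dlx1, a homeobox factor of ventral progenitors and interneurons, was at 9.41, 9.33 and 9.11 in cKO and at 10.04, 9.67, 10.32, 9.53 and 9.65 in controls. No value overlapped, and the difference was -0.56 (SE 0.14, limma adjusted p = 1.00). Controls 1 and 3 were the highest and cKO 3 the lowest. Dlx1 was at -0.72 (SE 0.13) without controls 2 and 4 and at -0.76 (SE 0.13, adjusted p = 0.280) with both tissue covariates. Its paralog Dlx2 was at 9.67, 9.50 and 9.79 in cKO and at 10.46, 9.74, 10.44, 9.72 and 9.99 in controls, so that cKO 3 overlapped the lower controls (-0.42, SE 0.16). Dlx2 was at -0.65 (SE 0.13) without controls 2 and 4 and at -0.68 (SE 0.11, adjusted p = 0.157) with both covariates. Dlx5, a family member expressed later in the lineage, was at -0.20 (SE 0.23), at -0.48 without controls 2 and 4 and at -0.06 without control 1.

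Of 25 measured fate factors 20 had an estimate below 0, with a median of -0.10. At an unadjusted p under 0.05, 3 were lower, against 1.01% of all genes. The median was -0.15 without controls 2 and 4, with 22 members below 0. The list means overlapped, at 9.655 to 9.725 in cKO and 9.708 to 9.887 in controls, where controls 2 and 4 were the lowest. The 3 members under the unadjusted threshold were Dlx1, Dlx2 and Insm1, a factor of dividing neuronal progenitors, at -0.21 (SE 0.09). Meis1 had no overlap at -0.13 (SE 0.07), with all 3 cKO arrays between 8.63 and 8.67. Pou3f2, a POU factor of neural cells that is named here for its values, went the other way without overlap on the brighter of its 2 probe sets. It was at 8.851, 8.920 and 8.843 in cKO against 8.567 to 8.837 in controls (0.12, SE 0.09), so the groups nearly touched. Pax6, named in the study's title, and Sox11, Nfib and Pou3f4, which the study placed in a network with it, had estimates of -0.15 to -0.10 with overlap. The study chose these genes on these samples, so they are not independent evidence of a direction. Pax6, which directs neuronal fate in adult progenitors, was at 7.71, 7.97 and 8.39 in cKO and at 8.30, 8.07, 8.27, 8.08 and 8.02 in controls (-0.12, SE 0.12). Its values in cKO spanned more than those of all controls, and the estimate was 0.03 without cKO 1. Sox11, a factor of immature neurons, was at -0.13 (SE 0.19), Nfib at -0.15 (SE 0.08, and -0.41 on its other, dimmer probe set, or -0.28 with both averaged), Pou3f4 at -0.10 (SE 0.12) and Sox4 at -0.13 (SE 0.12). Bcl11a was at -0.23 (SE 0.13) and Sp8, a factor of bulb interneurons, at -0.16 (SE 0.12).

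Among 31 genes of neuroblasts and their migration the median was -0.06, with 23 below 0. In 2 (6.45%, against 1.05% of all genes) all cKO arrays were lower. The list means overlapped, at 10.057 to 10.155 in cKO and 10.126 to 10.229 in controls. With the cortical covariate the median was -0.03 and 17 members were below 0. Dcx was at 9.54, 9.45 and 9.50 in cKO and at 9.69, 9.89, 10.12, 9.69 and 9.74 in controls (-0.33, SE 0.09, adjusted p = 1.00). The cKO arrays lay close together (SD 0.05, n = 3) and below all controls (SD 0.18, n = 5). Stmn2, a microtubule regulator of growing axons that mature neurons keep, was at -0.24 (SE 0.10), also without overlap. Cd24a, a surface glycoprotein of neuroblasts and ependymal cells, was at 9.19, 9.15 and 9.30 in cKO and at 9.73, 9.17, 10.14, 9.58 and 9.48 in controls. Here control 2 lay among the cKO arrays, and the difference was -0.41 (SE 0.20). Elavl4 was at -0.25 (SE 0.09), Tubb2b, a tubulin of young neurons, at -0.18 (SE 0.10), and St8sia2, which makes polysialic acid for migrating cells, at -0.18 (SE 0.11), each with overlap. Gad1, the enzyme that makes GABA, was the 1 member with all cKO arrays higher (3.23%, against 0.943% of all genes), at 12.30, 12.22 and 12.18 against 11.97 to 12.16. Striatal neurons express Gad1 too.

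**Figure D3:**
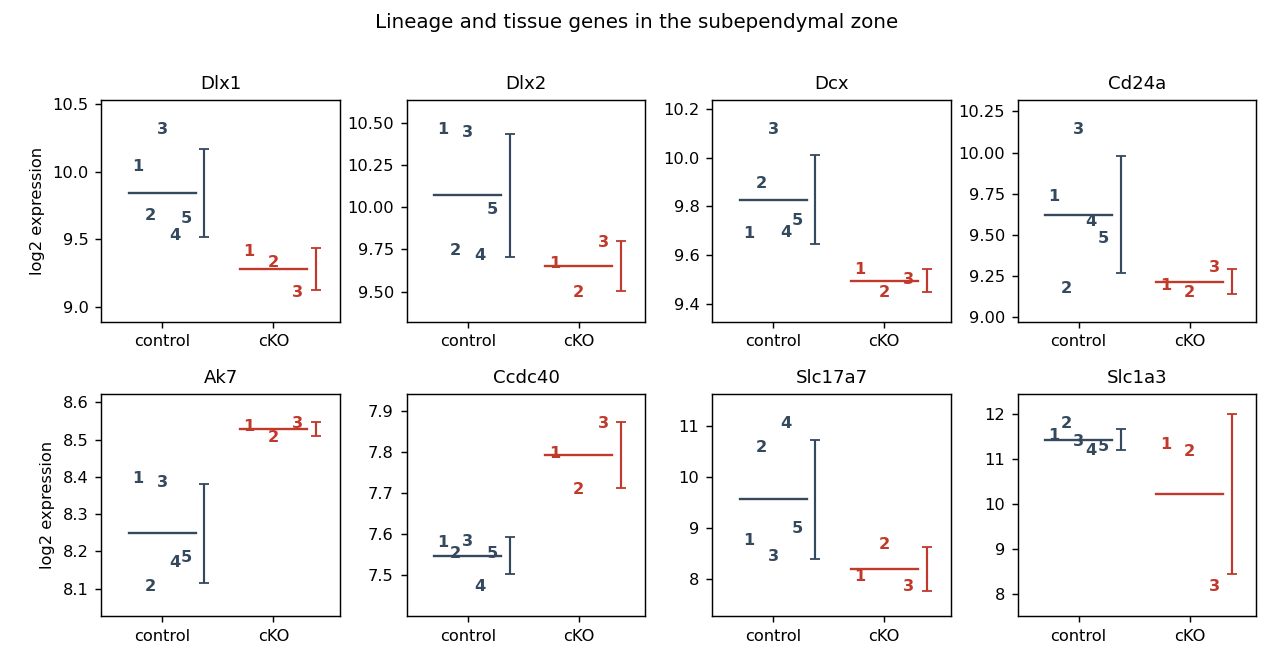
Log2 expression of 8 lineage and tissue genes in SEZ arrays; digits are replicate numbers, lines are means and bars are the SD, and the axes do not start at 0. Dlx1 and Dcx separate the groups, controls 1 and 3 are the highest in Dlx2 and Cd24a, controls 2 and 4 stand apart in Slc17a7, and cKO 3 alone is low in Slc1a3.

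The astrocyte and stem cell list was centred near 0 (median 0.01, 29 genes, 13 below 0). Gfap, the intermediate filament of astrocytes, was at 9.01, 9.19 and 9.37 in cKO and at 8.83, 9.94, 9.23, 9.43 and 9.50 in controls (-0.20, SE 0.20), and it was at 0.002 without controls 2 and 4. Fabp7, a lipid carrier of radial glia-like and young cells, was at 11.59, 11.61 and 11.53 in cKO against 11.89, 11.95, 11.95, 11.74 and 11.74 in controls (-0.28, SE 0.13). It was the 1 member without overlap (3.45%, against 1.05% of all genes with all cKO arrays lower). Nes, the nestin gene, lay between 7.39 and 7.78 in cKO and between 7.23 and 7.65 in controls. Egfr, the receptor of activated progenitors, lay between 9.38 and 9.62 in cKO and between 9.35 and 9.61 in controls. Of the 29 genes 1 was lower at an unadjusted p under 0.05 and 0 were higher, against 1.01% and 1.46% of all genes.

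Ependymal genes leaned upward. Of 34 measured 24 had an estimate above 0, with a median of 0.08. At an unadjusted p under 0.05, 7 were higher, against 1.46% of all genes. In 2 of the 34 (5.88%, against 0.943% of all genes) all cKO arrays were higher. Ak7, an adenylate kinase of cilia, was at 8.54, 8.51 and 8.54 in cKO and at 8.40, 8.11, 8.39, 8.17 and 8.18 in controls (0.28, SE 0.08, adjusted p = 1.00). Ccdc40, which sets the spacing of dynein arms, was at 7.80, 7.71 and 7.87 against 7.47 to 7.58 (0.24, SE 0.07). Dnah9 (0.15, SE 0.06) and Hydin (0.17, SE 0.07), parts of the ciliary axoneme, overlapped, as did Foxj1. The direction of the list rests on the 2 controls rich in cortex. Their list means were 7.88 and 7.87, the lowest of the 8 arrays, and without them the median was -0.01, with 15 of 34 above 0. With the cortical covariate it was -0.03.

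The oligodendrocyte lists did not separate the groups. Progenitor genes had a median of 0.01 over 19 genes and myelin genes -0.04 over 22. Olig2 lay between 9.07 and 9.47 in cKO and between 8.96 and 9.43 in controls. Sox10 lay between 9.40 and 9.76 and between 9.18 and 9.86. Pdgfra, the growth factor receptor of progenitors, lay between 9.51 and 10.26 and between 9.39 and 10.02. The groups overlapped over most of their range in all 3 genes. No member of either list had an unadjusted p under 0.05, against 2.47% of all genes.

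Among signalling pathways no list had a member past the adjusted threshold. The Wnt list had a median of 0.07 (0.01 with the cortical covariate), with 18 of 26 above 0, of which the inhibitor Wif1 was at 0.19 (SE 0.10) while the ligand Wnt5a was at -0.20 (SE 0.11). Notch genes had a median of 0.03, with the glycosyltransferase Mfng at -0.19 (SE 0.09) and the receptor Notch3 at 0.21 (SE 0.12). The BMP list was at 0.02 and its receptor gene Bmpr1b at -0.21 (SE 0.14). Fgf1 was at 10.14, 9.31 and 9.90 in cKO and at 8.29, 9.30, 9.32, 9.42 and 9.63 in controls (0.59, SE 0.30), a difference drawn out by the low control 1.

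Chromatin and metabolic lists showed single genes only. Of 22 polycomb and DNA methylation genes 15 were below 0, with a median of -0.04. Bmi1, which keeps adult stem cells from arresting, was at 9.06, 8.97 and 8.80 in cKO and between 9.21 and 9.28 in the 5 controls (-0.31, SE 0.12, adjusted p = 1.00). Ezh2, the methyltransferase of polycomb, was at 10.42, 10.32 and 10.22 against 10.40 to 10.58 (-0.19, SE 0.07). In the cholesterol and sterol carrier list (median -0.07, 20 genes, but -0.01 without controls 2 and 4) the carrier Scp2 was at 7.32, 7.41 and 7.36 in cKO and at 7.83, 8.09, 7.89, 8.17 and 7.67 in controls. Its difference of -0.57 (SE 0.10, adjusted p = 0.268) shared the lowest adjusted p with Ccna2. It was smaller, -0.44 (SE 0.09), without controls 2 and 4, and -0.41 (SE 0.10) with both covariates. Interferon-induced genes had a median of -0.14, with 18 of 22 below 0, but array means ran from 7.26 to 7.83 in cKO and from 7.29 to 8.28 in controls, with overlap. The median was 0.02 without cKO 1, -0.01 without control 4 and 0.08 with the cortical covariate.

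**Figure D4:**
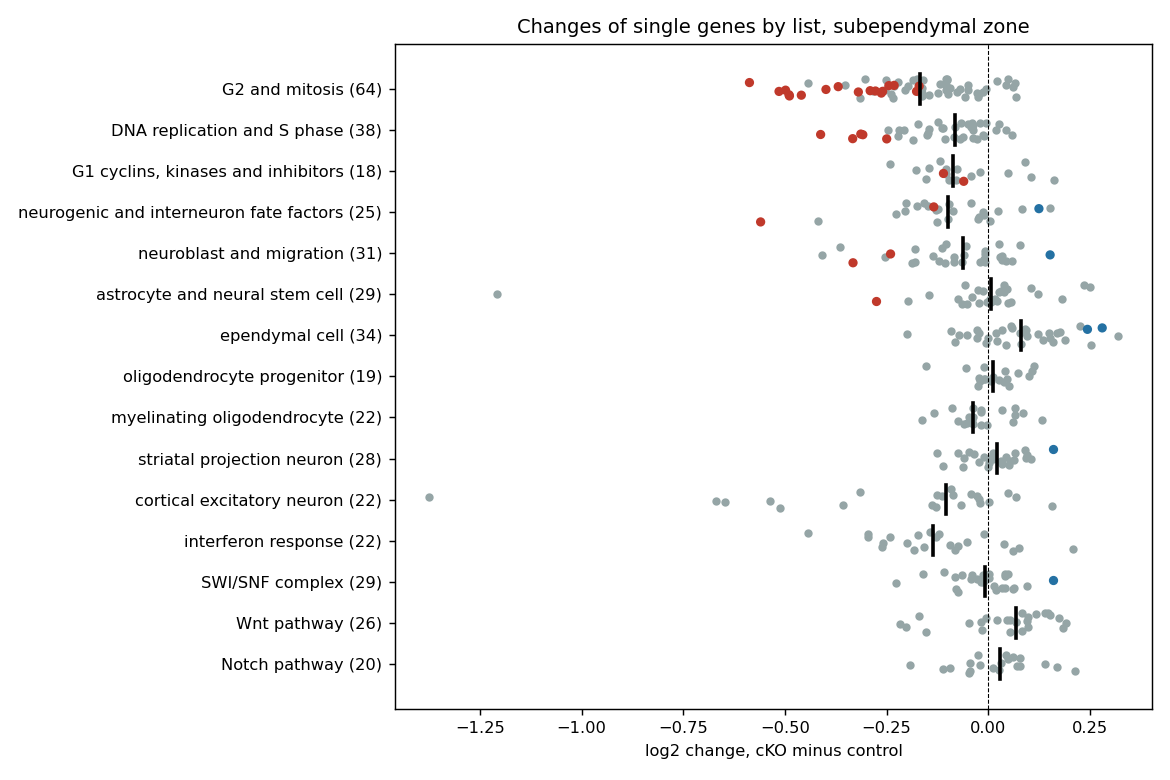
Log2 differences (cKO minus control) of single genes in 15 lists, with the number of measured genes in parentheses; black bars are list medians, red points are genes with all cKO arrays below all controls, blue points genes with all above, grey points genes with overlap, and the vertical position within a list is arbitrary. Red points are 26.6% of the G2 and mitosis list (17), 13.2% of the S phase list (5) and 11.1% of the G1 list (2). They are 8% of the fate factor list and 6.45% of the neuroblast list, against 1.05% of all genes.

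The 4 genes with the smallest p on the higher side belonged to no list. Olfr414, annotated as an olfactory receptor, was at 7.01, 6.88 and 6.69 in cKO against 6.39 to 6.61 in controls (0.34, SE 0.08, adjusted p = 1.00). Msrb2, a mitochondrial methionine sulfoxide reductase, was at 8.84, 8.84 and 8.83 against 8.40 to 8.60 (0.29, SE 0.08). Irf5, an interferon regulatory factor of myeloid cells, was at 7.92, 7.93 and 7.997 against 7.45 to 7.86 (0.28, SE 0.08). Scimp, an adaptor of immune cells, was at 0.27 (SE 0.07). The microglial list to which such cells belong had a median of -0.01 over 23 genes, and Cx3cr1 lay between 9.66 and 9.87 over all 8 arrays. From the synapse list Shank3, a scaffold of excitatory synapses, was at 0.21 (SE 0.09) without overlap.

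The effect in the SEZ was set against that in the OB by the difference of the 2 effects. Only Islr2, a membrane protein of growing axons, passed (1 of 19938 genes, 0.00502%). In the SEZ it was at 10.29, 10.06 and 10.19 in cKO and between 10.15 and 10.38 in controls, a difference of -0.08 (SE 0.11). In the OB the difference was -1.29, so the SEZ effect was higher by 1.21 (SE 0.15, limma adjusted p = 0.0117). The call was lost without SEZ cKO 1 (adjusted p = 0.0846), without SEZ cKO 3 (0.0658) and without controls 2 and 4 (0.117). It was also lost with the cortical covariate (0.0942), both tissue covariates (0.141) and the small nucleolar RNA covariate (0.0558), while the difference itself stayed between 1.15 and 1.27. For Prokr2, the guidance receptor of neuroblasts, the SEZ estimate was -0.36 (SE 0.21) and the OB estimate -1.92, with an adjusted p of 0.460 for their difference. For Ccna2 the estimates were -0.59 in the SEZ and 0.14 in the OB, with the same adjusted p of 0.460. No gene of the cell cycle lists passed for the difference between tissues.

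**Figure D5:**
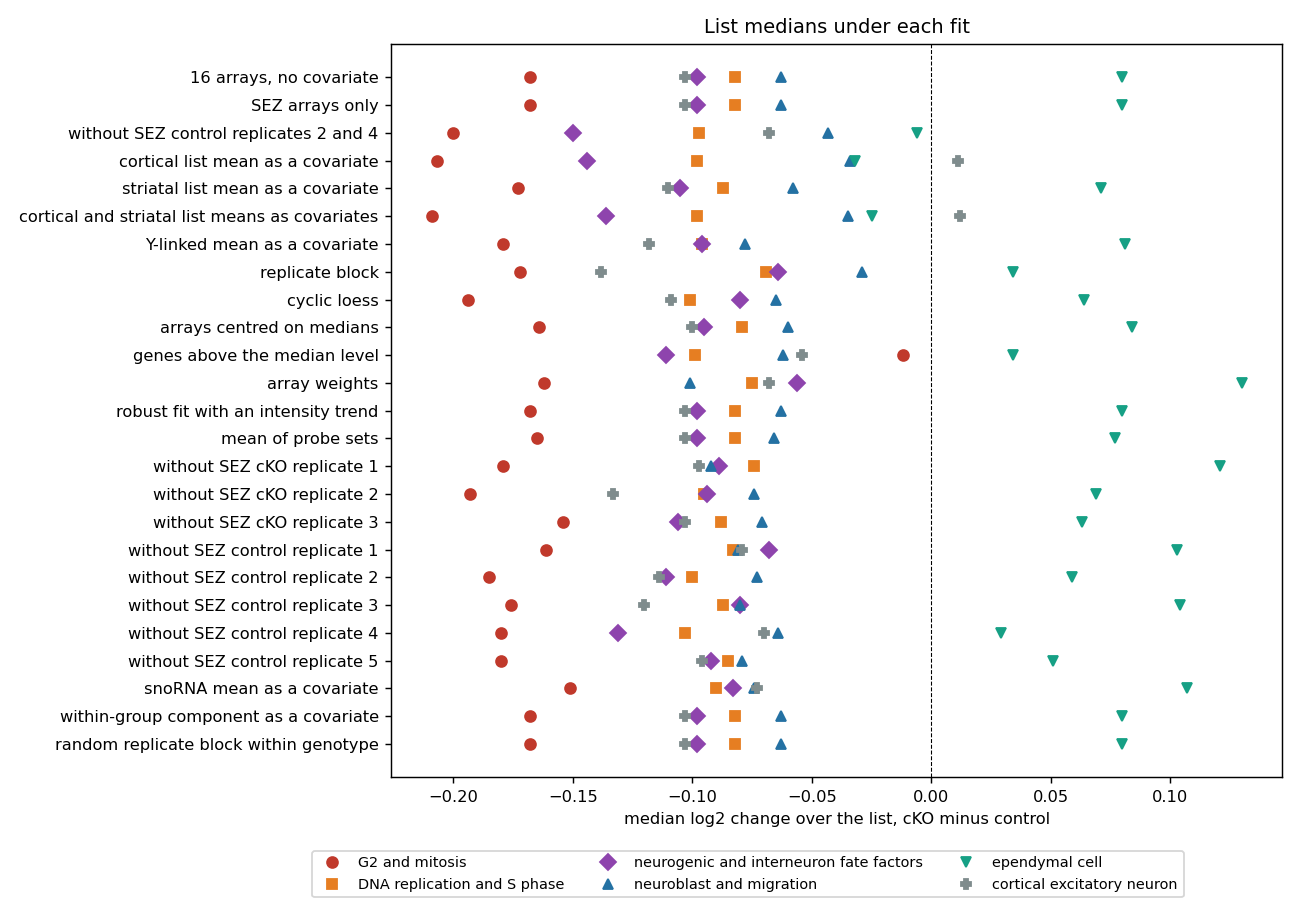
Median log2 difference over 6 gene lists (cKO minus control) in the fit of 16 arrays without covariates (top) and in 24 other fits, of which 5 leave the estimate of each gene as it is. The G2 and mitosis median stays between -0.21 and -0.15 except where only genes above the median level were kept (-0.01, 3 genes), and the ependymal median crosses 0 without controls 2 and 4 and with the cortical covariate, alone or beside the striatal one.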

How the data were processed

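Total RNA of 8 SEZ samples (3 cKO, 5 control) was measured on 1-colour Affymetrix arrays, together with 8 OB samples. The deposited values are log2 expression per probe set, made by the authors with RMA in Affymetrix Expression Console 1.2, per the submitters' processing notes. No gene positions were taken from the arrays, whose genome build, not given in the sources used here, stays unknown. RMA includes quantile normalisation, so a shift shared by most genes cannot be seen, and low values are compressed.

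Of 35556 probe sets, 21789 had 1 gene symbol, 1621 several and 12146 none. For the 999 genes with more than 1 probe set, the one with the highest mean over all arrays was kept, giving 19938 genes. All 16 arrays were fitted in 4 groups with limma 3.58.1 (R 4.3.3, lmFit and eBayes, 12 residual and 4.34 prior degrees of freedom). Tests were two-sided with Benjamini-Hochberg adjustment over all genes and a threshold of 0.05. The function was tested on simulated data. SEZ arrays correlated at 0.982 to 0.994 with no duplicates, and their number limits the precision. Nothing says whether mice were pooled. The p-values rest on the spread between samples within all 4 groups, OB arrays included, and not on a known number of mice.

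The members and gene lists were chosen with earlier results of these data known. The rule for named genes took Smarca4, the 15 smallest p in each direction, up to 6 members of each list by p and a fixed set of lineage markers; a subset is named. Alternatives were SEZ arrays alone, tissue, Y-linked and small nucleolar RNA covariates, a within-group component, a replicate block, a random block over both tissues (duplicateCorrelation), 2 other scalings, a level filter, array weights, a robust trend, averaged probe sets and leaving out arrays.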

Additional observations from a re-analysis of the deposited data

Results flagged for a closer look

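In 7 of 128 sets of 5 control values (98 genes and 30 list means) 1 array lay far from the other 4 by Dixon's test, where chance gives about 1 in 20. Control 1 was the low array in Kif11 (7.80, others from 8.10) and Fgf1 (8.29, others from 9.30), and the high array in Mcm2 (8.19, others up to 7.99) and Cdkn2b (7.48, others up to 7.19). Control 3 was high in Kcnrg (6.19, others up to 6.04) and low in Msrb2 (8.40, others from 8.57). Control 4 was low in Ccdc40 (7.47, others from 7.55). For Islr2 the SEZ effect exceeded the OB effect by 1.21 in the test of the difference itself (SE 0.15, adjusted p = 0.0117).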

How the results depend on the processing

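Of 24 other fits, 3 (the small nucleolar RNA covariate, the within-group component and a random block of same-numbered arrays of a genotype) were chosen after seeing the data. By construction 5 (SEZ arrays alone, the level filter, the robust trend, the component and the random block) leave an estimate as it is and bear only on its error. Over the other 19 the estimates of 91 of 98 named genes kept their sign. Near-0 estimates turned for Smarca4 (0.009 with cyclic loess, 0.003 with array weights, -0.042 to 0.034 without 1 array), Pax6 (-0.308 to 0.033 without 1 array), Gbp3 (-0.446 to 0.011 without 1 array), Sox11 (0.003, replicate block) and Gfap (0.002 without controls 2 and 4). Tbr1 was at 0.044 without controls 2 and 4, 0.197 with the cortical covariate and 0.186 with both, and Neurod6 at 0.013 and 0.012 in the latter fits. No fit called a gene except the replicate block, where 2 genes passed (Ccna2 at -0.64, SE 0.08, and Scp2 at -0.58, SE 0.08, both adjusted p = 0.0303 in limma) and 1158 had an unadjusted p under 0.05. Deviations of same-numbered SEZ cKO and control arrays correlated at -0.41, 0.13 and 0.61, with no single direction. Whether a number marks anything shared by these 2 groups was not tested. The block changed no other call. Same-numbered SEZ and OB arrays correlated at 0.17 to 0.57 in the 5 control pairs and at -0.06, 0.25 and 0.39 in the cKO pairs, so the tissues may not be independent. The SEZ and OB controls numbered 5 (correlation 0.47) were labelled with different genotypes, so a shared number does not always mean the same mouse. With the random block (consensus correlation 0.18) 0 genes passed in the SEZ, and the Islr2 difference had an adjusted p of 0.00462. Genes with an unadjusted p under 0.05 numbered 119 among genes above the median level, 1088 with array weights, 817 with the small nucleolar RNA covariate and 388 to 853 leaving out 1 array, the most without control 1. Genes without overlap (398) numbered 1106 without controls 2 and 4, 171 above the median level and 509 to 1369 without 1 array, as fewer arrays overlap less; they were not recounted in fits that leave expression values as they are. The count for the difference between tissues was 0 without controls 2 and 4, with the cortical, both tissue or small nucleolar RNA covariates, 2 with array weights and 0 to 2 without 1 array. With 3 cKO arrays and dim mitotic probe sets, small differences were not detectable.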

Other observations

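Vessel genes had estimates above 0 in 16 of 22 members (median 0.05), and the array means of 8.79 to 8.93 in cKO overlapped those of controls (8.77 to 8.86), with a median of 0.01 without cKO 1. Immediate early genes, which neurons switch on with activity, were above 0 in 13 of 16 (median 0.07), while their array means ran from 8.98 to 9.52 in cKO and from 9.07 to 9.39 in controls. This median was -0.04 without cKO 1, with 6 of 16 above 0, and 0.004 without control 1, with 8 above. Septal neuron genes had a median of 0.05 over 11 genes, but -0.04 without cKO 1 and -0.05 without control 3, with Zic4, a zinc finger factor of the septum and its progenitors, at 0.24 (SE 0.09, limma adjusted p = 1.00). Synapse genes were centred at -0.01 over 18 genes, Hedgehog pathway genes at -0.01 over 11 and EGF and FGF receptors and ligands at 0.02 over 20. Choroid plexus genes were at 0.01 over 13. Mvd, an enzyme of sterol synthesis, was at 0.16 (SE 0.08) while Fdft1, which makes squalene in the same pathway, was at -0.22 (SE 0.12) with no overlap, so that single members of the pathway lay on either side of 0.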
